A study of Mus musculus with 18 samples.

Results

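The Gimap genes (GTPases of immunity-associated proteins) encode small guanine nucleotide binding proteins that lie side by side in 1 cluster of the mouse genome. The members described here are the 8 rows whose gene symbol is Gimap1, Gimap3, Gimap4, Gimap5, Gimap6, Gimap7, Gimap8 or Gimap9, out of 22137 genes in one deposited table and 24778 in the other. All 8 were present in both tables and all 8 passed the filter on low counts in both. The family was chosen on values measured in these same libraries, so its levels and differences are given as a description. Where members are counted past the threshold of a fit over all genes, that count comes from the values that chose the family, stands beside the count or share of all genes, and is no independent evidence on the members.

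Bulk tumour RNA was sequenced in 18 libraries from metastases in the liver, seeded by splenic injection of MC38, a colon carcinoma line of the mouse. The 1st table compares mice that were fed a high-fat diet (HFD, n = 5) with mice fed a low-fat diet (LFD, n = 5), both groups with the genotype label WT. The 2nd table holds tumours with the genotype label shYap (n = 4) and tumours with the genotype label shControl, titled shCon (n = 4), all from high-fat-fed mice titled WT, and asks about a hairpin against Yap in the tumour line beside a control hairpin. Nothing in the labels ties the libraries of a group to separate mice, so any spread or p-value measures the spread between these samples, which may be technical. The labels give neither age nor sex, and do not say whether a hairpin line was 1 clone.

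Gimap proteins share a GTPase domain of the AIG1 type, are anchored to or found near intracellular membranes, and are known above all from lymphocytes, where several of them are needed for the survival of resting cells outside the thymus. Members have also been described in vascular endothelium. Loss of Gimap5 depletes peripheral T cells in mice and in rats, and loss of Gimap1 depletes mature T and B cells in mice.

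The cluster spans 123.6 kb of chromosome 6 (mm10, chr6:48647234-48770851). From left to right it holds Gimap8, Gimap9, Gimap4, Gimap6, Gimap7, Gimap1, Gimap5 and Gimap3, with Gimap6 and Gimap3 on the minus strand and the other 6 on the plus strand. The coding sequence of Gimap8 is 2064 bases long, and those of the other members are 873 to 984 bases long. Gimap3 and Gimap5 are the closest pair, with 89.4% identity over their aligned coding bases, against 56.1 to 73.2% for every other pair. These 2 transcripts shared 335 stretches of 31 bases, which are 13.2% of the stretches of Gimap3 and 8.02% of those of Gimap5, and no other pair shared any.

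The bases before the RefSeq starts of 4 members are shown because they include the most abundant member per kb (Gimap4), the member with the largest differences (Gimap7), the paralogue of Gimap5 (Gimap3) and the member that departed from the others in shYap tumours (Gimap9). The RefSeq starts of Gimap4 and Gimap9 lie slightly inside the gene as GENCODE gives it. Each window is the 250 bases before the start, 5′ to 3′ on the strand of the gene, from RefSeq on build GRCm38.p6. The windows are chr6:48684328-48684577 for Gimap4, chr6:48718371-48718620 for Gimap7 and chr6:48675885-48676134 for Gimap9, all on the plus strand, and chr6:48770852-48771101 for Gimap3 on the minus strand. Capitals mark matches, on either strand, to the motifs of ETS (AGGAAG), RUNX (TGTGGT) and TEAD (GGAATG) factors.
Gimap4: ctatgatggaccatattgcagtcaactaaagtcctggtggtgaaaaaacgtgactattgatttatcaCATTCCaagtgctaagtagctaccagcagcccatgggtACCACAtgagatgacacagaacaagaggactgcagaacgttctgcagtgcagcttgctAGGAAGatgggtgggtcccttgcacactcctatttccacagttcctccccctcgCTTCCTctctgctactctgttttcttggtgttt
Gimap7: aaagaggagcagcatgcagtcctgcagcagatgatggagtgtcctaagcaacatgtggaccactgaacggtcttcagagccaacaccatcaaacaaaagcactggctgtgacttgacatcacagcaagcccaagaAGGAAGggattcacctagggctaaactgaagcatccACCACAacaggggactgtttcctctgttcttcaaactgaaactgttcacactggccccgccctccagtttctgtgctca
Gimap3: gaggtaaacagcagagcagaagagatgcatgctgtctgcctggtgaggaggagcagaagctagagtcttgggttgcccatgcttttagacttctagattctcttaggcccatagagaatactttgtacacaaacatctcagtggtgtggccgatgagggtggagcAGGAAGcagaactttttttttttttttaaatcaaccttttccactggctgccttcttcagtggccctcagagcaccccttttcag
Gimap9: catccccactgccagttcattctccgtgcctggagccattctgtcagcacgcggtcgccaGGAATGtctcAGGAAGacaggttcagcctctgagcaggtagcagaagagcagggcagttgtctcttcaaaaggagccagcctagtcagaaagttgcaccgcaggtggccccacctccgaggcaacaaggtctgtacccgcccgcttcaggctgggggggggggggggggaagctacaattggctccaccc

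An ETS match stood in the windows of 7 of 8 members, all but Gimap6, against 29.5% of the 32851 windows of this length in the RefSeq table. Only the letters AGGAAG were searched for ETS, and variants of them were not. ETS factors are a family of which several members act in lymphocytes. The RUNX letters stood in 3 members, Gimap1, Gimap4 and Gimap7, against 14.0% of all windows. In Gimap7 the RUNX match lay 79 to 74 bases before the start, and in Gimap4 145 to 140 bases before it. TEAD factors are the DNA-binding partners of Yap, and their letters stood in Gimap1, Gimap4 and Gimap9, against 12.6% of all windows. The letters TATAAA stood in 1 member, Gimap6, against 12.4% of all windows. The motifs of TCF7 and LEF1 (CTTTGA), IKZF1 (TGGGAA) and GATA factors (AGATAA) stood in 0 of 8 members, against 13.8%, 21.6% and 9.99% of all windows. No matches overlapped each other. Gimap8 has a pair of RefSeq starts, so 9 windows were searched for the 8 genes. These matches describe letters only and do not show that a factor binds.

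Libraries held 17766207 to 18474191 estimated counts in the table of HFD and LFD and 17207214 to 21309950 in the table of shYap and shCon. Levels below are CPM (counts scaled to a common library size) with TMM factors fitted within each table, so levels are compared only within a table. Xist, which female cells make from their silenced X, averaged 0.169 ± 0.102 CPM in HFD and 110 ± 23.7 CPM in LFD (SD, n = 5 each), so a difference in sex between these groups and the diet cannot be told apart. The 10 hepatocyte genes summed to 336 to 3060 CPM in HFD and 9540 to 87400 CPM in LFD, and to 11500 to 55500 CPM in shYap and 9720 to 33200 CPM in shCon. Yap1 averaged 75.9 ± 5.62 CPM in shYap and 77.9 ± 3.55 CPM in shCon (SD, n = 4 each), so its RNA does not separate these labels and shYap below refers to the label. Of 9 colon epithelial markers, 6 passed the filter in each table, and Krt20 was at 0 in every LFD library. HFD replicates 1 and 2 and replicates 3 and 4 were closer to each other (biological coefficients of variation of 7.31% and 6.37%) than any other HFD pair (12.7 to 24.5%), and with each of these pairs summed all 8 members passed the threshold used below, among 4233 of all genes.

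**Figure D1:**
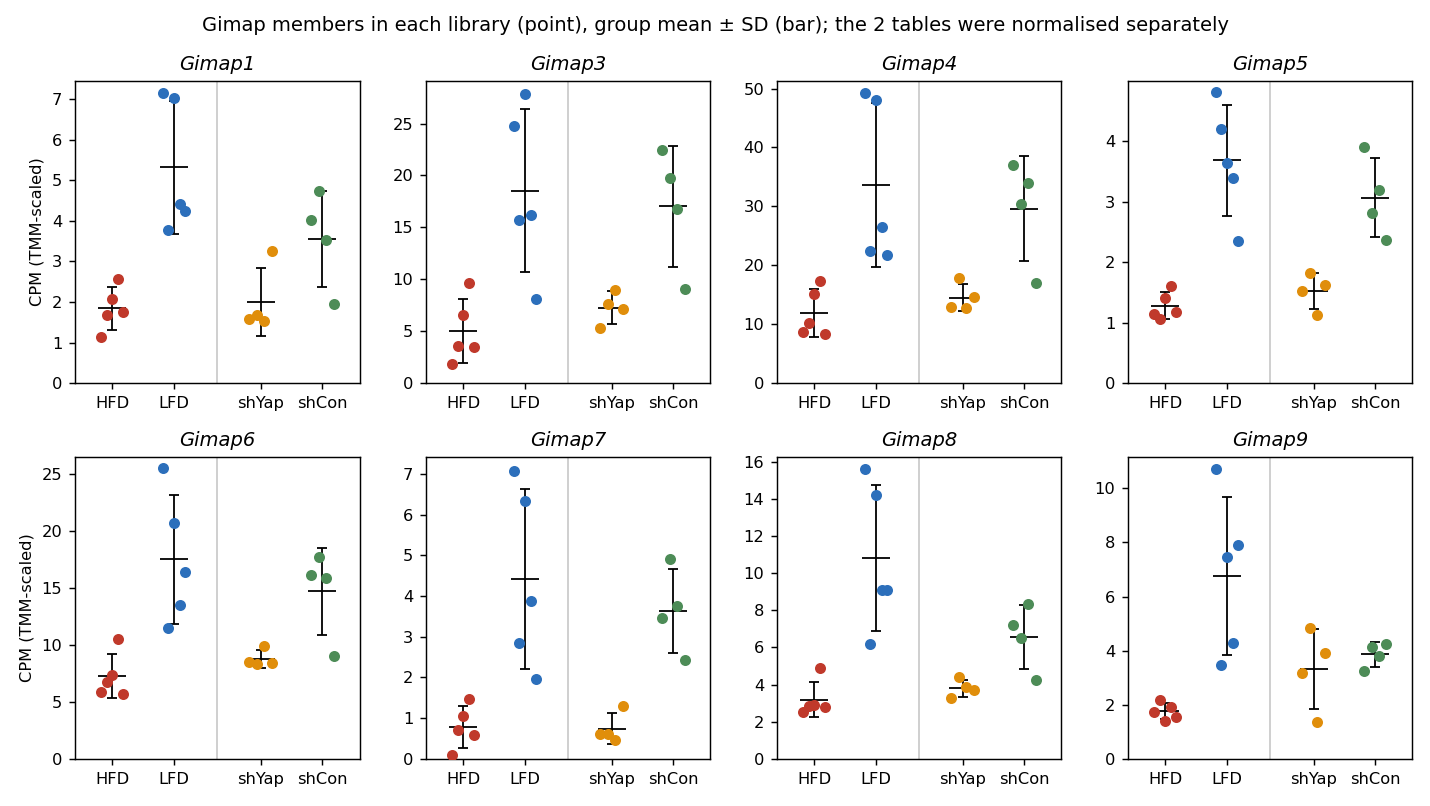
CPM of each Gimap member in every library (points), with the group mean and SD (bars). In the HFD and LFD table every HFD point lies below every LFD point except in Gimap3, and in the shYap and shCon table the groups are apart in Gimap3, Gimap5 and Gimap7.

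The diet comparison sets HFD tumours against LFD tumours. All 8 members were lower in HFD tumours, as were 50.2% of all genes, by log2 fold changes of -1.27 to -2.49 with a median of -1.64, against a median near 0 (-0.00176) over the 16340 genes tested. Summed over the family, HFD tumours held 23.1, 29.0, 37.9, 50 and 25.4 CPM, against 145, 70.2, 135, 81.4 and 71.9 CPM in LFD tumours. The HFD sums lie below all LFD sums. In a bulk tumour, fewer cells that carry these genes and less RNA of them in each cell cannot be told apart. The threshold (Benjamini-Hochberg adjusted p of 0.05, quasi-likelihood test of edgeR) was passed by all 8 members, and by 41.1% of all genes in either direction, 21.6% as lower and 19.4% as higher. In 7 of 8 members the groups did not overlap, where 14.8% of all genes were lower without overlap. HFD replicate 4 was the highest HFD library in 7 of 8 members, and LFD replicate 1 the highest LFD library in 7 of 8.

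Gimap5, whose loss depletes peripheral T cells, stood at 1.15, 1.06, 1.41, 1.61 and 1.17 CPM in HFD and at 4.81, 4.20, 3.65, 3.4 and 2.36 CPM in LFD. The groups did not overlap, and the HFD libraries lay close together. Its log2 fold change was -1.52 ± 0.22 (SE). Gimap3, its close paralogue, stood at 1.89, 3.59, 6.6, 9.66 and 3.47 CPM in HFD and at 24.8, 15.7, 27.8, 16.2 and 8.14 CPM in LFD. Here the groups overlapped, since HFD replicate 4 lay above LFD replicate 5, while the other 4 HFD libraries lay below every LFD library. The log2 fold change of Gimap3 was -1.88 ± 0.46. How reads of the stretches these 2 genes share were divided between them is uncertain. Their sum came out as a whole number (within 0.01) in 9 of 10 libraries, where Gimap3 alone did in 7 and Gimap5 alone in 6.

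Gimap1, needed for mature T and B cells, stood at 1.15, 1.67, 2.07, 2.57 and 1.76 CPM in HFD and at 7.14, 3.78, 7.03, 4.40 and 4.23 CPM in LFD. Every HFD library lay below every LFD library, and LFD replicates 1 and 3 stood above the other LFD libraries. The log2 fold change was -1.53 ± 0.27. Of the 3073 exonic bases of Gimap1, 1107 (36.0%) also belong to Gimap1os, a non-coding gene on the opposite strand. The strandedness of the libraries is not stated, so reads within this shared stretch may belong to either gene. Gimap1os took 13.0% ± 8.47 of their joint estimated counts in HFD and 21.8% ± 7.80 in LFD (SD, n = 5 each). With the counts of both genes summed, the log2 fold change was -1.71. Gimap1os itself stood at 0.300 ± 0.239 CPM in HFD and 1.71 ± 1.27 CPM in LFD, with a log2 fold change of -2.48 ± 0.70 (adjusted p = 0.017, edgeR).

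Gimap4, which hastens the death of T cells that have entered apoptosis in mice, was the member with the highest CPM, at 8.62, 10.3, 15.1, 17.4 and 8.31 in HFD and 49.2, 22.5, 48.1, 26.5 and 21.8 in LFD. All HFD libraries lay below all LFD libraries, and LFD replicates 1 and 3 stood at about the same level, well above the other LFD libraries. Its log2 fold change was -1.50 ± 0.31. Gimap6, which binds an autophagy protein of the Gabarap family and takes part in autophagy, stood at 5.88, 6.77, 7.35, 10.5 and 5.72 CPM in HFD and at 25.5, 11.5, 20.7, 13.5 and 16.4 CPM in LFD. The groups did not overlap, but HFD replicate 4 came near LFD replicate 2. At -1.27 ± 0.25, its log2 fold change was the smallest of the family.

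Gimap7, whose human counterpart activates GTP hydrolysis by another family member, showed the largest difference. It stood at 0.0997, 0.707, 1.06, 1.46 and 0.587 CPM in HFD and at 7.07, 2.85, 6.32, 3.88 and 1.95 CPM in LFD. The groups did not overlap, and HFD replicate 1 held only 2 estimated counts of it. The log2 fold change was -2.49 ± 0.54. Gimap7 made up 2.18% ± 1.01 of the family's summed CPM in HFD tumours and 4.22% ± 0.898 in LFD tumours (SD, n = 5 each), with the highest HFD share (2.92%) above the lowest LFD share (2.72%).

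Gimap8, the member with a long coding sequence and several GTPase domains, stood at 2.54, 2.83, 2.92, 4.88 and 2.79 CPM in HFD and at 15.6, 6.17, 14.2, 9.11 and 9.11 CPM in LFD. All HFD libraries lay below all LFD libraries, and HFD replicate 4 stood apart from the other 4. The fitted difference was a log2 fold change of -1.76 ± 0.28. Gimap9, whose function is less well known, stood at 1.74, 2.17, 1.41, 1.91 and 1.56 CPM in HFD and at 10.7, 3.47, 7.46, 4.29 and 7.89 CPM in LFD. The HFD libraries were close to each other and below all LFD libraries, and LFD replicate 5, lowest of its group for Gimap3, Gimap4, Gimap5 and Gimap7, was second highest for Gimap9. For Gimap9 the log2 fold change was -1.93 ± 0.31.

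Lymphocyte markers were lower in the same libraries. All 16 T cell genes had fitted values below 0 in HFD, and 14 passed the threshold as lower and 0 as higher. They summed to 32.5 to 69.9 CPM in HFD and to 52.9 to 193 CPM in LFD. Of 10 hepatocyte genes, all 10 passed as lower in HFD, where 21.6% of all genes did. The part of either cell type in the difference was not tested directly, but the fit was repeated with each list's mean level as a covariate. With the T cell level in the fit, the members' median became -0.64 and 2 of 8 members passed, Gimap5 and Gimap9, among 3142 of all genes. With the hepatocyte level, their median was -1.84 and 1 member passed, Gimap5, among 903 of all genes. The members spread apart in that fit, from -0.50 for Gimap9 and -1.04 for Gimap6 to -3.48 for Gimap7 and -3.49 for Gimap3. Most calls of T cell genes were lost too, with 1 of 16 past the threshold in either fit. With the hepatocyte level 0 of 8 natural killer, 0 of 7 dendritic and 2 of 5 B cell genes passed, 0 of 15 interferon-inducible GTPases and 4 of 10 hepatocyte genes. Both covariates differ between the diets themselves, so these fits have less information on diet than the fit without them.

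**Figure D2:**
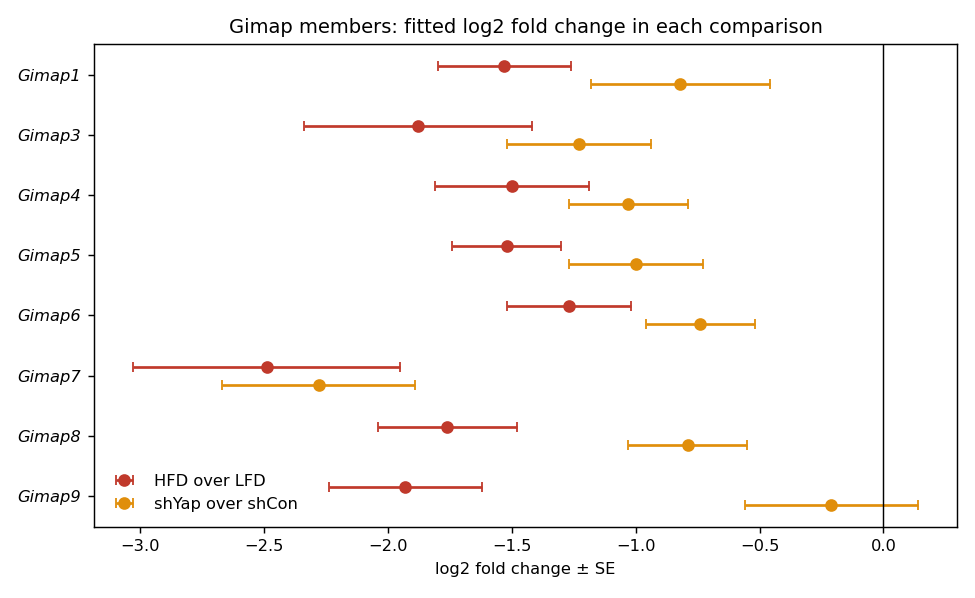
Fitted log2 fold change of each member with its standard error (bars), HFD over LFD in red and shYap over shCon in orange. All 16 values lie below 0, and Gimap9 lies at -1.93 for HFD and at -0.21 for shYap.

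The hairpin comparison asks what differs in tumours labelled shYap from those labelled shCon on the same high-fat diet. All 8 fitted values were below 0, as were 46.1% of all genes, and ran from -0.21 for Gimap9 to -2.28 for Gimap7, with a median of -0.91 against 0.03 over the 16571 genes tested. The family summed to 36.8, 47.1, 40.1 and 44.0 CPM in shYap and to 97.6, 91.0, 89.3 and 50.4 CPM in shCon. The sums did not overlap, with shCon replicate 4 standing near the shYap libraries. By edgeR 0 of 8 members passed an adjusted p of 0.05, as did 0% of all genes, whereas 1804 genes (10.9%) had an unadjusted p under 0.05. At that unadjusted level 7 of 8 members were lower, where 6.13% of all genes were. DESeq2 called 408 genes, 4 members among them (Gimap3, Gimap4, Gimap5 and Gimap7). Groups did not overlap in 3 of 8 members, where 3.96% of all genes were lower without overlap.

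Gimap7 stood furthest apart, at 0.608, 0.606, 0.454 and 1.31 CPM in shYap and 3.46, 4.91, 3.75 and 2.42 CPM in shCon. The groups did not overlap. Its fitted difference was -2.28 ± 0.39 (SE), and it made up 1.76% ± 0.834 of the family's summed CPM in shYap and 4.48% ± 0.796 in shCon (SD, n = 4 each), also without overlap. Gimap3 stood at 5.27, 7.67, 9.02 and 7.18 CPM in shYap and at 22.5, 19.8, 16.8 and 9.06 CPM in shCon, which is apart by a narrow margin between shYap replicate 3 and shCon replicate 4. Its log2 fold change was -1.23 ± 0.29. Gimap5 stood at 1.52, 1.82, 1.13 and 1.63 CPM in shYap and at 3.91, 2.81, 3.19 and 2.37 CPM in shCon. Here too no shYap library reached a shCon library, with a log2 fold change of -1.0 ± 0.27.

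Gimap4 stood at 12.9, 17.8, 12.8 and 14.6 CPM in shYap and at 37.1, 30.4, 34.0 and 17 CPM in shCon. Only shYap replicate 2 reached above the lowest shCon library, replicate 4. Its log2 fold change was -1.03 ± 0.24. Gimap6 stood at 8.46, 8.33, 9.93 and 8.38 CPM in shYap and at 16.1, 17.7, 15.9 and 9.06 CPM in shCon, a log2 fold change of -0.74 ± 0.22. Gimap8 stood at 3.29, 4.39, 3.86 and 3.70 CPM in shYap and at 7.21, 6.49, 8.33 and 4.26 CPM in shCon, a log2 fold change of -0.79 ± 0.24. In both genes 1 shYap library lay above shCon replicate 4 and none above the other shCon libraries.

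Gimap1 stood at 1.57, 1.67, 1.53 and 3.26 CPM in shYap and at 4.01, 4.72, 3.52 and 1.94 CPM in shCon. In shYap, replicate 4 lay above shCon replicate 4, and the other 3 libraries lay below all shCon libraries. The log2 fold change was -0.82 ± 0.36, and -0.98 with the counts of Gimap1os added. Gimap9 stood at 3.19, 4.85, 1.36 and 3.92 CPM in shYap and at 3.26, 4.15, 3.79 and 4.26 CPM in shCon. Its groups overlapped widely: the highest and the lowest library both belonged to shYap, and the log2 fold change was -0.21 ± 0.35.

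A single library bore heavily on this comparison. Replicate 4 of shCon was the lowest shCon library in 7 of 8 members, all but Gimap9, and its T cell sum of 71.9 CPM was the lowest of shCon, where the others held 117 to 166 CPM. Without it, 94 genes passed in edgeR, among them 4 members (Gimap3, Gimap4, Gimap6 and Gimap7), and the members' median became -1.07. Replicate 3 of shYap was the lowest shYap library in 5 members and the highest for Gimap3 and Gimap6. With both of these libraries left out, each the farthest from the rest of its group over all genes, 1255 genes and 5 members passed, and the fitted value of Gimap9 turned to 0.10. Without shYap replicate 3 alone, the value for Gimap9 was 0.07.

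Markers of T cells again moved with the family. Their 16 genes summed to 36.8 to 51.7 CPM in shYap and to 71.9 to 166 CPM in shCon, without overlap. At an unadjusted p under 0.05, 15 of 16 were lower, where 6.13% of all genes were, and 0 passed the adjusted threshold. With the mean T cell level as a covariate the members' median was 0.08, and 5 members (Gimap1, Gimap3, Gimap4, Gimap6 and Gimap8) had values above 0, from 0.06 to 0.75. The T cell level separates the groups in this table, so in that fit the hairpin and the T cell level can hardly be told apart. Gimap7 stayed lowest there, at -1.14.

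**Figure D3:**
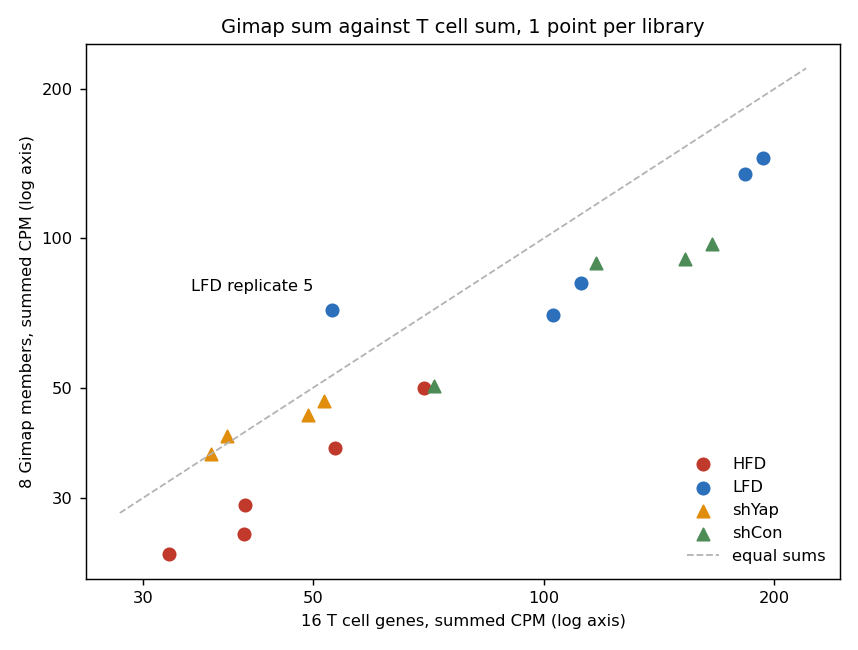
Summed CPM of the 8 Gimap members against summed CPM of 16 T cell genes in each library, both on log axes; circles are HFD and LFD, triangles shYap and shCon, and the dashed line marks equal sums. LFD replicate 5 lies above the line at 71.9 CPM of Gimap for 52.9 CPM of T cell genes, and the shYap points lie nearer the line than the shCon points.

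Beside the T cell sum, the family differed less between diets than its CPM did. The Gimap sum was 0.623 to 0.715 times the T cell sum in HFD tumours and 0.684 to 0.752 times in LFD replicates 1 to 4, with LFD replicate 5 at 1.36. In shYap tumours it was 0.892 to 1.04 times, against 0.586 to 0.760 times in shCon tumours, which do not overlap. These ratios use the members' own values and are a description.

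Single members did not all follow the T cell sum alike. Gimap7 was 0.307 to 2.09% of the T cell sum in HFD and 2.78 to 3.69% in LFD, so it was low in HFD also beside T cell genes. Gimap3 had a median of 8.80% in HFD and 15.2% in LFD, with an overlap (5.83 to 13.8% in HFD, 12.9 to 15.4% in LFD). Gimap1 was nearly the same in HFD and in 4 of 5 LFD libraries, with 3.53 to 4.32% in HFD and 3.69 to 3.93% in LFD replicates 1 to 4, and 8.0% in LFD replicate 5. Gimap6 stood at 13.7 to 18.1% in HFD and at 11.2 to 13.2% in LFD replicates 1 to 4, but at 30.9% in LFD replicate 5, so the HFD libraries lay between the lower 4 LFD libraries and the highest one. Between hairpins, Gimap7 ran from 1.17 to 2.65% in shYap and from 2.08 to 3.37% in shCon, and Gimap9 from 3.53 to 9.37% in shYap and from 1.96 to 5.93% in shCon, both with an overlap. Their medians were 1.42% in shYap and 3.20% in shCon for Gimap7, and 8.31% in shYap and 2.96% in shCon for Gimap9. Gimap6 ran from 16.1 to 25.7% in shYap and from 9.69 to 13.5% in shCon, with no overlap. Gimap4 (29.7 to 35.0% in shYap, 19.8 to 28.9% in shCon), Gimap8 (7.5 to 10% in shYap, 4.23 to 7.09% in shCon) and Gimap1 (3.22 to 6.62% in shYap, 2.41 to 3.08% in shCon) did not overlap either. Gimap5 overlapped, at 2.94 to 4.13% in shYap and 1.83 to 3.30% in shCon, and for Gimap3 the lowest shYap and the highest shCon library both stood at 14.3%.

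LFD replicate 5 stood apart for some members and not for others. Against the median of the other LFD libraries, its level per T cell sum was 1.04 times for Gimap3 and 1.07 times for Gimap7, but 2.12 times for Gimap1, 2.17 times for Gimap8, 2.64 times for Gimap6 and 3.76 times for Gimap9. Gimap5 at 1.61 times and Gimap4 at 1.67 times lay between these. The same library held the highest hepatocyte sum of its table, 87400 CPM, and the highest endothelial sum, 303 CPM, of which Stab2, Clec4g and Lyve1, genes of the liver sinusoid, made up 92.6 CPM. In the other LFD libraries the endothelial sum was 143 to 258 CPM and that of the 3 sinusoid genes 28.9 to 86.0 CPM. Over LFD replicates 1 to 5 the hepatocyte sum was 49500, 9540, 19900, 13300 and 87400 CPM. Gimap9 per T cell sum followed the same order in LFD, at 5.56, 3.38, 4.08, 3.84 and 14.9%. Gimap6 per T cell sum was 13.2, 11.2, 11.3, 12.1 and 30.9%. The endothelial sum was 258, 191, 197, 143 and 303 CPM, lowest in replicate 4. Replicate 2, lowest for Gimap6 and Gimap9 per T cell sum, held 86.0 CPM of sinusoid genes. In HFD, shYap and shCon the hepatocyte sum and Gimap9 per T cell sum did not follow the same order, although the same library was lowest in both. In shYap replicates 1 to 4 the hepatocyte sum was 20700, 36400, 11500 and 55500 CPM. Gimap9 per T cell sum stood there at 8.68, 9.37, 3.53 and 7.94%. The part of endothelial cells or hepatocytes in the levels of Gimap6, Gimap8 and Gimap9 was not tested.

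**Figure D4:**
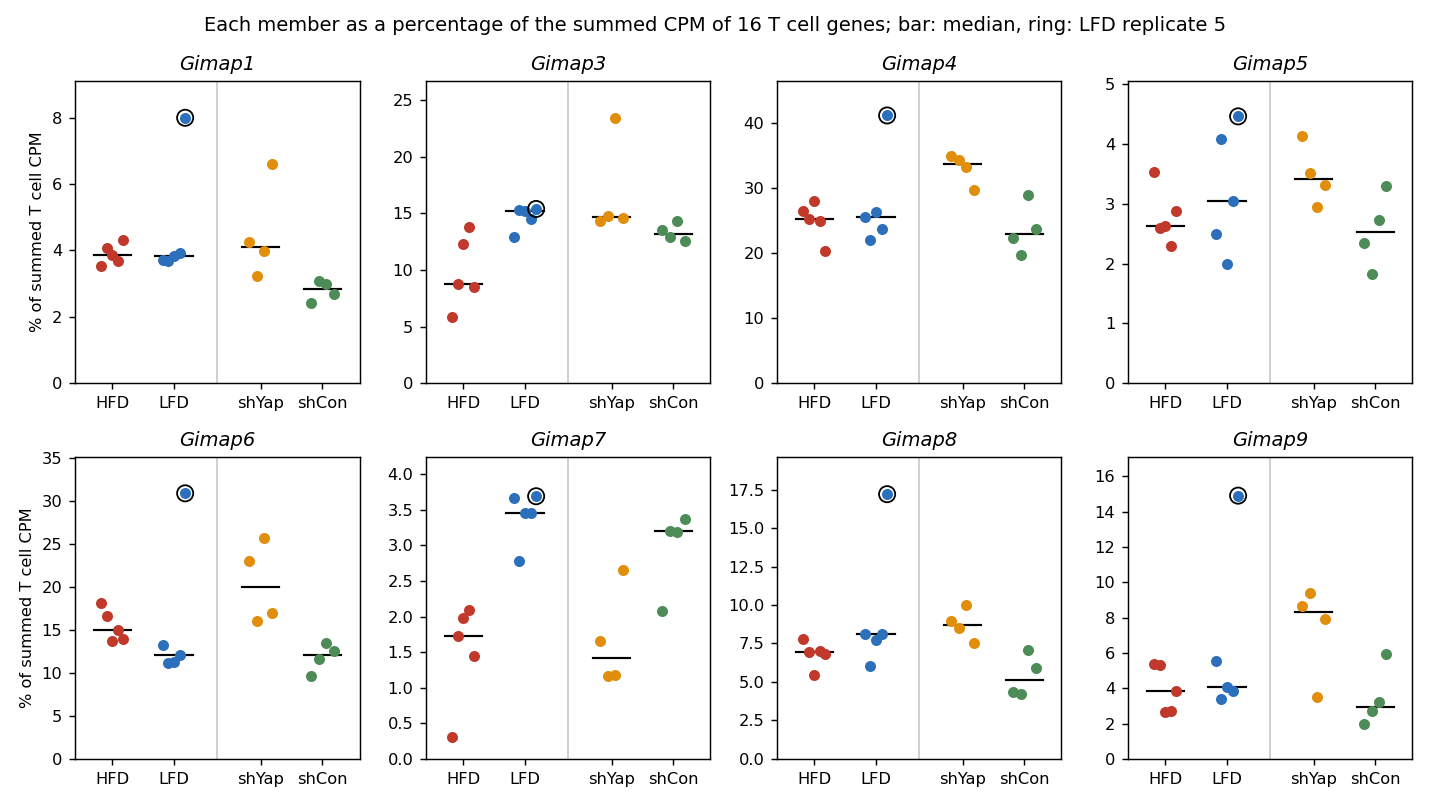
Each member as a percentage of the summed CPM of 16 T cell genes in every library; bars are group medians and the ring marks LFD replicate 5. The ringed point stands beside the other LFD points for Gimap3 and Gimap7 and far above them for Gimap1, Gimap6, Gimap8 and Gimap9.

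Levels can be compared between members per kb of exon. Gimap4 was highest in every group, at 6.50 ± 2.22 CPM per kb in HFD and 18.3 ± 7.53 in LFD (SD, n = 5 each), and at 7.91 ± 1.26 in shYap and 16.1 ± 4.80 in shCon (SD, n = 4 each). It stood above the next member in every library. In HFD the order continued with Gimap6 (2.07), Gimap3 (1.96), Gimap9 (1.07), Gimap8 (0.863), Gimap1 (0.599), Gimap7 (0.336) and Gimap5 (0.309 CPM per kb), and no neighbours below Gimap4 differed by more than the sum of their SDs. In LFD Gimap3 (7.19) came before Gimap6 (5.01), and Gimap7 (1.90) before Gimap1 (1.73), with Gimap5 last at 0.888 CPM per kb. Only the steps from Gimap4 to Gimap3 and from Gimap1 to Gimap5 exceeded the summed SDs there. Gimap7 was the lowest member in shYap, at 0.320 CPM per kb with Gimap5 at 0.368, while Gimap5 was lowest in shCon, at 0.740 CPM per kb with Gimap7 at 1.56. In shCon the steps from Gimap4 to Gimap3 and from Gimap6 to Gimap9 exceeded the summed SDs, and in shYap only the step from Gimap4 to Gimap3 did.

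Genes beside the cluster differed in both directions. Of 19 genes tested within 500 kb on either side, 4 were lower and 3 higher in HFD, and 12 did not pass, where 21.6% of all genes were lower and 19.4% higher. Rarres2, which encodes the chemoattractant chemerin and is strongly expressed in liver, had 13.1 ± 7.43 CPM in HFD and 148 ± 107 CPM in LFD, a log2 fold change of -3.5 ± 0.61 (adjusted p = 0.0021, edgeR). Sspo was lower too, with a log2 fold change of -1.64 ± 0.33. Tmem176a and Tmem176b, membrane proteins of myeloid cells and the nearest tested genes on the right, were lower, with log2 fold changes of -0.56 ± 0.13 and -0.35 ± 0.10. Zfp775, the nearest tested gene on the left at 24.0 kb, was higher by 0.43 ± 0.15 on the log2 scale, and Aoc1, an enzyme that breaks down histamine and other diamines, was higher by 2.1 ± 0.74 (adjusted p = 0.046, edgeR). Gm10243, a processed pseudogene, was higher by 0.29 ± 0.10. Inside the cluster, the non-coding genes Gimap1os and 4833403J16Rik were lower in HFD, with a log2 fold change of -1.19 ± 0.32 for the second, and Gm44226 did not pass (-1.06 ± 0.69). Between shYap and shCon, 18 flanking genes were tested and 0 passed, with 0 at an unadjusted p under 0.05 and fitted values of -0.06 ± 0.22 for Tmem176a and 0.55 ± 0.25 for Zfp775.

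**Figure D5:**
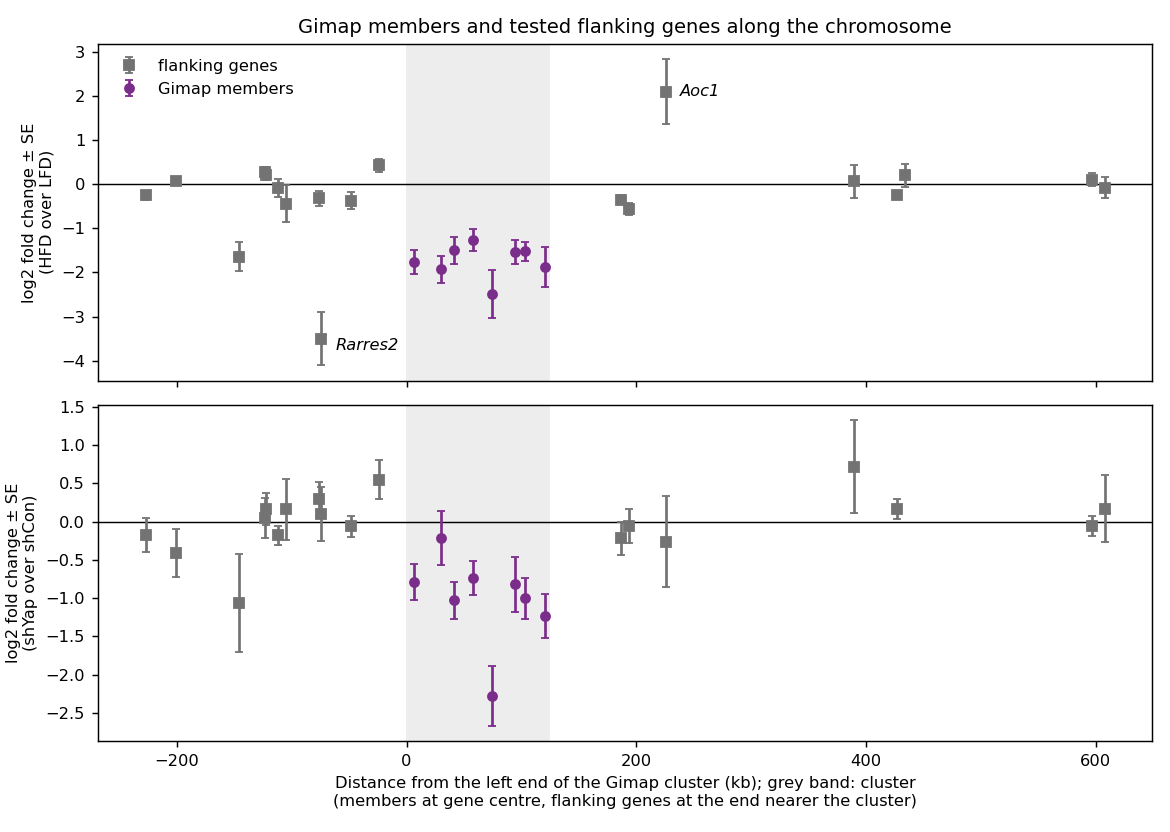
Log2 fold change with standard error of the 8 members (purple circles) and of tested flanking genes (grey squares) by distance in kb from the left end of the cluster, HFD over LFD above and shYap over shCon below. The members lie together below 0 in the grey band of the cluster, and most flanking genes lie near 0, with Rarres2 at -3.5 and Aoc1 at 2.1 for HFD.

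Among other genes of naive and recirculating lymphocytes, 5 of 11 tested passed as lower in HFD and 2 as higher. Of all genes, 21.6% passed as lower and 19.4% as higher. Lef1, a transcription factor of naive T cells, had 0.760 ± 0.0744 CPM in HFD and 4.74 ± 2.34 CPM in LFD, with a log2 fold change of -2.64 ± 0.36. Satb1, a chromatin organiser of T cells, was lower as well (log2 fold change -1.78 ± 0.27). Klf2, a factor that keeps T cells quiescent and is also abundant in endothelium, went the other way, with 75.2 ± 4.40 CPM in HFD and 31.3 ± 3.87 CPM in LFD (log2 fold change 1.27 ± 0.09, adjusted p = 4.27e-05, edgeR). In shYap the log2 fold changes were -1.46 ± 0.31 for Ccr7, -1.51 ± 0.45 for Lef1 and 0.52 ± 0.19 for Klf2, none past the adjusted threshold. At an unadjusted p under 0.05, 4 of 11 were lower and 2 higher, where 6.13% of all genes were lower.

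Other lymphocyte markers were lower in HFD as well. The counts for HFD stand beside 21.6% of all genes passing as lower and 19.4% as higher. All 5 tested B cell genes passed as lower, with a sum of 8.18 to 14.1 CPM in HFD and 20.9 to 66.2 CPM in LFD, and 4 of 9 B cell genes failed the filter on low counts. Without LFD replicate 4, which held the highest B cell sum, 3 B cell genes passed. Of 8 natural killer cell genes 7 passed, with a sum of 19.6 to 33.5 CPM in HFD and 24.9 to 71.1 CPM in LFD, and 4 passed when HFD replicate 1, 2 or 5 or LFD replicate 1 or 3 was left out. Of 7 dendritic cell genes 6 were lower, whereas 0 of 9 macrophage genes passed in either direction, and 1 did without LFD replicate 5. Among 12 endothelial genes Clec4g (-3.99 ± 0.77) and Stab2 (-2.37 ± 0.52), both of the liver sinusoid, passed as lower, and Kdr stood at -0.74 ± 0.30 without passing. Without LFD replicate 2, and likewise without LFD replicate 4, 4 endothelial genes passed. Of 6 neutrophil genes S100a8 (-3.16 ± 0.45) and S100a9 (-3.09 ± 0.60) passed as lower. Of 6 colon epithelial genes, Cdh1 (-1.89 ± 0.68) passed as lower and Cldn4 (0.90 ± 0.29) as higher. When 1 library was left out, 0 to 2 of them passed. Both the endothelial and the colon epithelial counts lie near the shares of all genes. With the closest HFD pairs summed, 9 of 16 T cell, 4 of 8 natural killer, 3 of 7 dendritic and 0 of 6 colon epithelial genes passed. Over all genes 4233 of 16927 passed in that fit. In shYap 0 genes of these lists passed in edgeR, while DESeq2 called 13 T cell, 4 natural killer, 2 dendritic and 1 B cell gene, and 0 of the other lists in this paragraph. Over all genes DESeq2 called 408 of 17475. At an unadjusted p under 0.05, 5 of 7 natural killer, 4 of 7 dendritic, 3 of 9 macrophage and 1 of 7 B cell genes were lower. None of these lists held a higher gene. Of all 16571 genes, 1016 were lower and 788 higher at that level. Of 12 endothelial genes 1 was lower and 2 were higher at that level, Lyve1 (log2 fold change 1.58 ± 0.58) and Stab2 (0.95 ± 0.40), and of 6 neutrophil genes 1 was higher, Mmp8 (1.60 ± 0.66). None of 10 hepatocyte genes reached that level in either direction. With the farthest library of each group left out, 13 T cell, 5 natural killer, 4 endothelial, 2 hepatocyte, 1 dendritic and 1 B cell gene passed. Over all genes 1255 of 16653 passed in that fit. None of the T cell, B cell, natural killer, dendritic, macrophage, neutrophil or endothelial genes was at 0 in all libraries of a group.

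Other GTPases, the interferon-inducible Gbp, Irg and Mx proteins that defend cells against infection, were mostly lower too. In HFD 12 of 15 passed as lower and 0 as higher, with a sum of 372 to 597 CPM in HFD and 578 to 1440 CPM in LFD, and 6 passed with the closest HFD pairs summed. Irgm2 had 36.2 ± 4.66 CPM in HFD and 78.3 ± 26.2 CPM in LFD, a log2 fold change of -1.11 ± 0.22. In shYap all 15 were lower at an unadjusted p under 0.05, where 6.13% of all genes were. Of the 15, 0 passed the adjusted threshold in edgeR, 7 in DESeq2 and 11 with the farthest libraries left out. Over all genes 0, 408 and 1255 passed in these fits. Gbp6 had 22.9 ± 7.15 CPM in shYap and 58.9 ± 17.9 CPM in shCon (log2 fold change -1.36 ± 0.29). Of 11 genes of the Bcl2 family and the Gabarap group, to which partners of Gimap proteins belong, 4 passed as higher and 1 as lower in HFD. Among all genes 19.4% passed as higher and 21.6% as lower. With the closest HFD pairs summed, 2 of the 11 passed, where 4233 of all 16927 genes did. Bcl2l1, which protects cells from apoptosis, was higher by 0.54 ± 0.13 on the log2 scale and Bcl2l11, which promotes it, by 0.39 ± 0.11. Of 10 lymphoid transcription factors 5 passed as lower and 1 as higher. Ikzf3 (log2 fold change -2.35 ± 0.49) and Myb (-2.44 ± 0.46) were lower, while Runx1 (0.66 ± 0.15) was higher. In shYap, Bcl11b, a factor of T cell identity, had 0.438 ± 0.142 CPM against 2.49 ± 0.728 CPM in shCon, with a log2 fold change of -2.49 ± 0.37 that did not pass (adjusted p = 0.149, edgeR).

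The genes outside the family whose profile over the 18 libraries lay closest to the members' mean profile were H2-Q7, Rnase6, Ppp1r16b, Serpina3g, Ltb, Plbd1, Skap1 and Batf3. Profiles were log2 CPM centred on the mean of each table, and likeness was the root mean square difference, among 14865 genes with a mean of at least 1 CPM in both tables. H2-Q7, a non-classical major histocompatibility gene, was closest at 0.215 log2 units, and Batf3, a factor of dendritic cells, was eighth at 0.286, against a median of 0.862 over other genes. Ltb, which encodes lymphotoxin beta, had log2 fold changes of -1.54 ± 0.42 in HFD and -1.16 ± 0.27 in shYap. Skap1, an adaptor of the T cell receptor, had -1.93 ± 0.42 in HFD and -1.18 ± 0.34 in shYap. The members themselves lay 0.168 (Gimap4) to 0.649 (Gimap7) log2 units from their mean, and Gimap9 lay at 0.497, so 6 of 8 members were within 0.356. Gimap3, Gimap7 and Gimap9 were thus farther from the family mean than each of the 8 closest outside genes. Those 8 were picked as the smallest distances among 14865 genes, while each member is part of the mean itself. The distances of members and of outside genes are therefore not alike, and no conclusion is drawn from this.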

How the data were processed

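RNA was sequenced from 18 bulk tumour libraries. The authors deposited estimated counts per gene in 2 tables, and per the submitters' processing notes the tools included Partek, STAR 2.7.3a and DESeq2, without their roles, and the builds were GRCm38 and mm10. Annotation, strandedness and read length are not given in the sources used here. Gene starts matched GENCODE M21 for all 8 members, from which exon lengths and coding sequences were taken.

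Estimated counts were rounded and each table was fitted alone without covariates in edgeR 4.0.16 (R 4.3.3): low genes were removed by filterByExpr, libraries scaled by TMM, and groups compared by the robust quasi-likelihood test, with a Benjamini-Hochberg adjusted p of 0.05 over all genes tested as the threshold. Standard errors were derived from the F statistic, as the size of a log2 fold change over the root of F. Log2 CPM used a prior count of 2. Counting error alone is larger for low members, since Gimap7 had 2 to 29 estimated counts in HFD libraries. No molecular identifiers that would mark PCR copies appear in the labels or counts used here.

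The members and the 13 gene lists were chosen with earlier results of these data known. The genes named are the members, up to 4 genes of each list by smallest p, tested neighbours within 500 kb, and the 8 genes with the closest profiles. Some genes under this rule are left out here, and those printed were picked with their values in view. Alternatives were DESeq2 1.42.0, other scaling factors (RLE, upper quartile, none), other filters, the replicate number as a block, a hepatocyte covariate and each library left out. A T cell covariate, summed HFD pairs, joint omission of the farthest libraries and summing Gimap1 with Gimap1os were added after the data were seen. Tested on simulated data in the design of HFD and LFD (16162 genes), the fit called 62.2% of genes changed by a fold of 2. It called 92.8% of those changed by a fold of 4. In the design of shYap and shCon (16329 genes) these rates were 33.3% and 80.8%. The simulation changed only a small share of genes, all above a floor of counts, and gave all libraries a common mean profile. In the data 41.1% of genes passed for HFD, so these rates may not hold there.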

Additional observations from a re-analysis of the deposited data

Results flagged for a closer look

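Among 36 groups of libraries, 1 for each member and for the family sum in each of the 4 groups, 3 held a library whose gap to its nearest neighbour was large for the group's range by Dixon's 95% criterion. Chance gives this in about 1 in 20 groups. Gimap8 in HFD replicate 4 stood at 4.88 CPM, with a gap of 0.838 of the range of HFD against a critical value of 0.71. Gimap1 in shYap replicate 4 stood at 3.26 CPM, with a gap of 0.922 against 0.829, and its count is shared with an antisense gene. Gimap6 in shYap replicate 3 stood at 9.93 CPM, with a gap of 0.916 against 0.829. Each of the 3 was the highest library of its group.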

How the results depend on the processing

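In the HFD comparison all 161 values of single members under the alternatives stayed below 0. All 8 members passed in every alternative except the covariates, which left 1 (hepatocyte) and 2 (T cell). Of all genes 6710 passed, against 903 and 3142 with these covariates and 4233 with the closest HFD pairs summed (replicates 1 and 2, replicates 3 and 4, whose coefficients of variation were 7.31% and 6.37%, against 12.7 to 24.5% in other HFD pairs). The T cell covariate moved the members' median to -0.64. Leaving out 1 library at a time gave 5523 to 7253 genes and a median of -1.82 to -1.50. Without scaling factors the median of all genes was 0.24 and that of the members -1.39. In the shYap comparison 138 of 145 values stayed below 0. Above 0 were, with the T cell covariate, Gimap1 (0.75), Gimap3 (0.30), Gimap4 (0.21), Gimap6 (0.11), Gimap8 (0.060) and the median (0.084), and Gimap9 without the farthest libraries (0.096) or without shYap replicate 3. With 1 library left out, Gimap9 ran from -0.45 to 0.066. Against 0 genes and 0 members in edgeR, DESeq2 called 408 genes and 4 members, the hepatocyte covariate 1 gene, and omission of the farthest libraries 1255 genes and 5 members; leaving out 1 library gave 0 to 94 genes, 0 to 4 members and a median of -1.07 to -0.81. The cause of these shifts was not tested. With the replicate number as a block 4929 genes and 8 members passed for HFD and 0 and 0 for shYap. Libraries with the same replicate number in their titles had deviations correlated at -0.50 to 0.32 and at -0.05 to 0.18. These values show no consistent pairing by title number, which the block used too. The deposited columns of shYap replicates 3 and 4 are headed with the numbers 4 and 5. Pairing by header number was therefore not checked for shYap and shCon. Such correlations cannot exclude a shared batch, and the labels state none. Precision is limited by 5 or 4 libraries a group and by low counts of Gimap5 and Gimap7.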
